A study of Mus musculus with 14 samples.

Results

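The subunits of the class III phosphatidylinositol 3-kinase (PI3K) complex were examined in regulatory T cells (Tregs), a CD4 T cell lineage marked by the transcription factor Foxp3. The 6 genes were Atg14, Pik3c3, Pik3r4, Becn1, Uvrag and Nrbf2. They were chosen by gene symbol, and each was read by 1 transcript cluster (the set of probes that reads a gene) of the 22203 on the array. All 6 were tested, since no filter on signal was applied.

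Sorted mouse Tregs were profiled on 14 Clariom S arrays. The cells came from mixed bone marrow chimeras, in which CD45.2+ donor marrow was mixed with CD45.1+ wild-type marrow and given to sublethally irradiated Rag1-/- hosts, which make no T or B cells of their own. The mice were on the C57BL/6 background, of both sexes, and their age in this experiment is not given by the labels. All CD45.2+ donors carried a Foxp3-YFP-Cre allele, which drives Cre recombinase in Foxp3-expressing cells. Control donors had 1 loxP-flanked Atg14 allele (Atg14 heterozygous) and donors labelled Atg14 KO had both alleles flanked, so both groups were exposed to Cre and the controls were not wild type. Donor Tregs were sorted by CD45.2 and Foxp3-YFP, and central Tregs (cTregs), low for CD44, were parted from effector Tregs (eTregs), high for CD44, with the help of another surface marker. As tissue, the series description gives spleen with peripheral lymph nodes and the methods of the study give spleen alone. There were 4 arrays of control cTregs, 3 of KO cTregs, 4 of control eTregs and 3 of KO eTregs, written below by group and replicate number. The study names 4 control and 3 KO chimeras as the source of both subsets, but whether arrays of one number share a mouse is not stated. P values measure the spread between these arrays.

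Pik3c3 encodes Vps34, the lipid kinase that makes phosphatidylinositol 3-phosphate (PI3P) on membranes. It works with the scaffold Vps15, encoded by Pik3r4, and with Beclin 1, encoded by Becn1. A further subunit sets the place of action. Atg14 directs the kinase to forming autophagosomes (complex I), Uvrag directs it to endosomes (complex II), and Nrbf2 joins the Atg14 form. Atg14 and Uvrag bind the same core in place of each other. PI3P then recruits proteins with FYVE, PX or WIPI-type domains.

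RefSeq start sites on the mouse assembly GRCm38.p6 were used for 4 of the 6 genes, namely Atg14, Pik3r4, Uvrag and Nrbf2. The 250 bases before the start are shown for the targeted subunit Atg14, for Uvrag, which takes its place in complex II, and for Nrbf2, whose signal differed most between the subsets over both genotypes. Capitals mark matches on either strand to CCAAT and to TCACGTGA, which contains the E-box CACGTG. The Atg14 window (chr14:47568435-47568684, minus strand) held neither, that of Uvrag (chr7:99141145-99141394, minus strand) held CCAAT at 3 places, and that of Nrbf2 (chr10:67285282-67285531, minus strand) held TCACGTGA once. The annotated Uvrag gene reaches to 99141167 and the Nrbf2 gene to 67285343, so part of each of these windows lies within the gene. In Uvrag that part holds the CCAAT nearest the start site used.
Atg14: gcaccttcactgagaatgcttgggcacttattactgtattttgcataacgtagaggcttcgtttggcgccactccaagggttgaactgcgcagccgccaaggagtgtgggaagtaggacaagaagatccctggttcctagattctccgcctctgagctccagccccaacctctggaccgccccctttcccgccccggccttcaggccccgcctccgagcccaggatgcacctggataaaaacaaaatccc
Uvrag: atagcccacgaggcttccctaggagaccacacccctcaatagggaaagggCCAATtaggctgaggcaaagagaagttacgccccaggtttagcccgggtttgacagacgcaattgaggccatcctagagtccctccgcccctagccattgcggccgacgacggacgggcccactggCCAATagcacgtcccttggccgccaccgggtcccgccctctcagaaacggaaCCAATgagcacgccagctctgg
Nrbf2: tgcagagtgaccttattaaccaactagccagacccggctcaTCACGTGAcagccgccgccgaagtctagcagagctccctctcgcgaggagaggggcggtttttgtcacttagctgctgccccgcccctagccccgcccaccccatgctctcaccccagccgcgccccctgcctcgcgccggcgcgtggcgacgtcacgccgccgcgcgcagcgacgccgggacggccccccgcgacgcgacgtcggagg
Of 32851 windows of this length, 33.8% held CCAAT, 6.02% CACGTG and 0.785% TCACGTGA. The window of Pik3r4, not shown, held CCAAT once. No window of the 4 genes held CCGGAAGT, a motif of ETS factors that was present in 2.88% of all windows. None of the motifs searched was thus present in all 4 windows, and GC content ran from 48.8% in Pik3r4 to 71.2% in Nrbf2, against a median of 52.4% over all windows.

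The median log2 signal of an array lay between 8.77 and 8.90, and background probes had medians of 6.00 to 6.30. The mean signal of 7 T cell markers was 12.67 to 12.79 on all arrays, and Foxp3 means were 12.81 to 12.90 in the 4 groups. The mean signal of Cd44 rose from 9.58 in control cTregs to 11.19 in control eTregs (adjusted P = 0.000121). Ptprc, which encodes CD45, was at 13.38 to 13.51 in all groups. Among the KO eTreg arrays KO eTreg 1 stood apart, with a Cd44 signal of 10.60 against 11.52 and 11.49 in KO eTreg 2 and 3. A list of 12 macrophage markers also differed among these arrays, with a mean log2 signal of 8.39 in KO eTreg 1 against 10.35 and 10.37 in the other two. Control eTreg arrays lay between 8.64 and 9.07 and all cTreg arrays between 7.99 and 8.31. In eTregs 8 of the 12 markers had an unadjusted P below 0.05 between genotypes and none (0) passed adjustment, against 8.03% and 0.117% of all transcript clusters. Csf1r, for example, was 1.55 higher (adjusted P = 0.301), Mrc1 1.59 (adjusted P = 0.496), Lyz2 1.28 (adjusted P = 0.562) and C1qc 1.12 (adjusted P = 0.355). Of 10 dendritic cell markers 7 were higher and 3 lower in KO eTregs, with a median difference of 0.61, 6 had an unadjusted P below 0.05 and 1 was called. That one, Siglech, rose by 1.78 in KO eTregs (adjusted P = 0.000483), from 8.37 to 8.86 in control arrays to 9.78, 10.79 and 10.65. H2-Ab1 was 1.16 higher (adjusted P = 0.312). From cTregs to eTregs 5 of the 12 macrophage markers and 4 of the 10 dendritic cell markers were called in KO arrays, where 2.43% of all transcript clusters were. In controls none (0) of either list was called, against 3.58% of all transcript clusters, and 7 and 6 had an unadjusted P below 0.05, against 12.8%. Over both genotypes 9 and 4 were called, against 6.75%. Of 8 CD8 and natural killer cell markers, 2 were called higher and 2 lower in eTregs than cTregs in controls (50% against 3.58%). Between genotypes in eTregs 7 of these 8 were higher in KO arrays, with a median difference of 0.34. Of them 2 had an unadjusted P below 0.05 and none (0) was called. In bulk samples of this kind more or fewer cells of a type cannot be told apart from more or less RNA per cell.

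Atg14, the targeted gene, did not have a lower signal in arrays labelled KO. In eTregs its log2 signal was 9.15, 9.004 and 9.32 in the KO arrays and 8.92, 9.01, 8.77 and 8.64 in the control arrays. In cTregs it was 9.24, 9.33 and 9.29 in the KO arrays and 9.26, 8.96, 8.64 and 8.89 in the control arrays. In each subset 2 of the 3 KO arrays lay above every control array, and the third lay within the control range. The difference was 0.32 in eTregs (95% interval 0.031 to 0.61) and 0.35 in cTregs (95% interval 0.060 to 0.64), or 1.25-fold and 1.27-fold. In both subsets an exact two-sided permutation test gave p = 0.0857, where the smallest possible value is 0.0286. In the limma fit across all transcript clusters the adjusted P was 0.550 in eTregs and 0.9999 in cTregs. Averaged over both subsets, the difference was 0.34 (95% interval 0.13 to 0.54, unadjusted P = 0.00324, adjusted P = 0.377), a comparison in which 0.0901% of all transcript clusters were called. That fit counted the arrays of both subsets as independent, and its interval may be too narrow if both subsets came from the same mice. In the alternative limma fits to all arrays the unadjusted P reached 0.0126. Without KO eTreg 2 and 3, the arrays with high macrophage marker signals, the difference in eTregs was 0.32. In this and every value below without both arrays, the KO eTreg group is KO eTreg 1 alone, which the fit assumes to vary like the other groups. Which exons the probes read was not analysed here, and a probe outside the deleted part would not check the deletion. The study reports that it verified the deletion of Atg14 by quantitative PCR in total Tregs, which were other samples and were not analysed here. "KO" below names the group as labelled, and every direction is drawn between labels.

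Across the groups Atg14 was highest in KO cTregs (9.29 ± 0.042, SD, n = 3), then in KO eTregs (9.16 ± 0.16, SD, n = 3), control cTregs (8.94 ± 0.26, SD, n = 4) and control eTregs (8.84 ± 0.16, SD, n = 4). Arrays of each pair of neighbours in this order overlapped. The signal in eTregs was 0.10 below that in cTregs in controls (exact two-sided permutation p = 0.600) and 0.13 below it in KO arrays (exact two-sided permutation p = 0.300, with 0.100 the smallest possible).

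**Figure D1:**
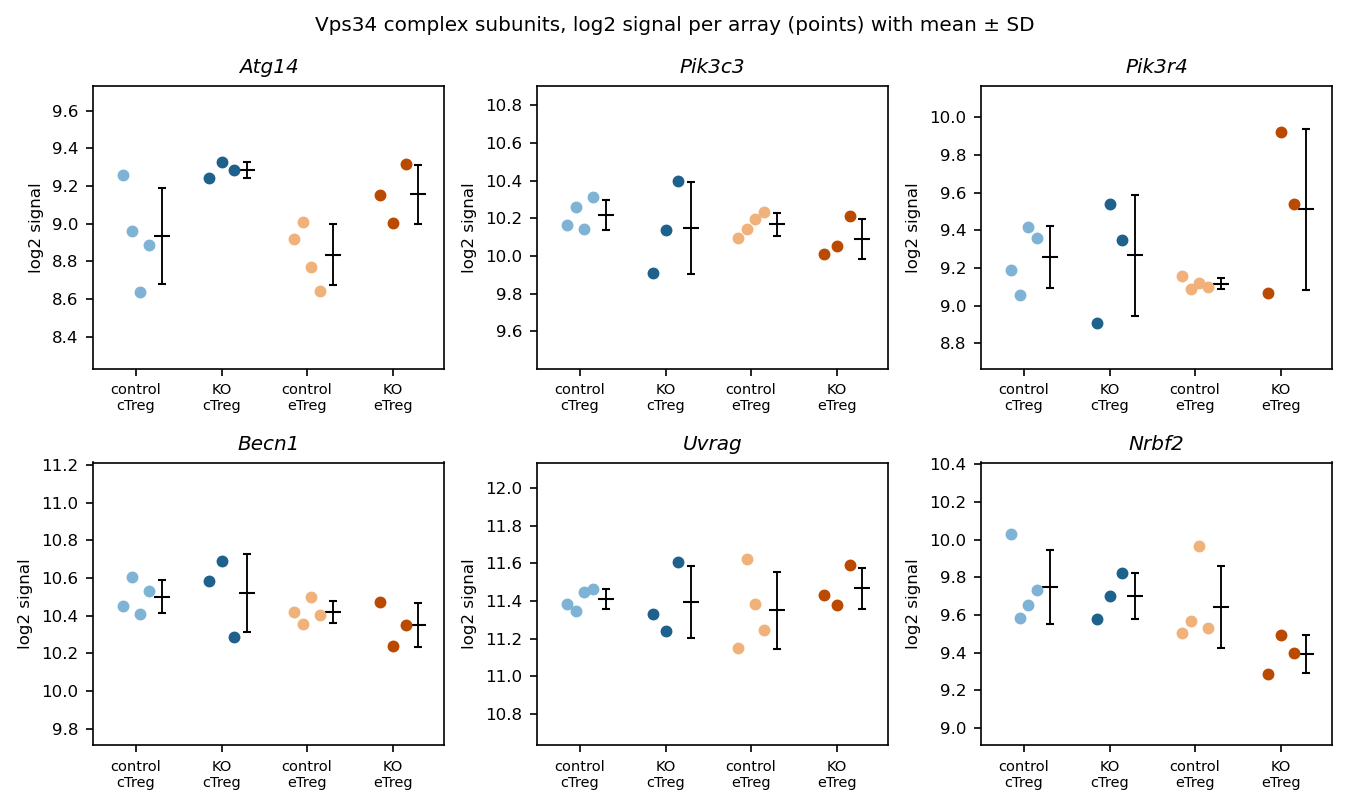
Log2 signal of each of the 6 subunits (vertical axis, each panel spanning the same range around its own centre) in the 4 groups (horizontal axis). Points are arrays, and the bar beside them is the mean with its SD over 3 or 4 arrays. Most groups overlap, 2 of 3 KO arrays lie above all control arrays for Atg14 in each subset, and Pik3r4 spreads from 9.07 to 9.92 in KO eTregs.

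Pik3c3 and Becn1, of the shared core, had the smallest SDs among the 6 subunits when pooled over the groups, though not within every group. Pik3c3, the kinase itself, had group means of 10.22 ± 0.080 (SD, n = 4) in control cTregs, 10.15 ± 0.24 (SD, n = 3) in KO cTregs, 10.17 ± 0.062 (SD, n = 4) in control eTregs and, in KO eTregs, 10.09 ± 0.11 (SD, n = 3). All its arrays lay between 9.91 and 10.40, and all groups overlapped. The KO arrays were below controls by 0.076 in eTregs and by 0.071 in cTregs, and the 95% intervals reached from -0.32 to 0.17 and from -0.31 to 0.17. Becn1, which couples the core to its regulators, had group means of 10.50 ± 0.088 (SD, n = 4), 10.52 ± 0.21 (SD, n = 3), 10.42 ± 0.059 (SD, n = 4) and 10.35 ± 0.12 (SD, n = 3) in the same order of groups. Its genotype difference was -0.068 in eTregs (95% interval -0.30 to 0.17) and 0.021 in cTregs (95% interval -0.21 to 0.25). The SD of Becn1 pooled over the groups was 0.12, at the 13.2 percentile of all transcript clusters, and that of Pik3c3 was 0.13, at the 18.2 percentile.

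Pik3r4, the scaffold and activator of the kinase, was the subunit with the widest spread, with a pooled SD of 0.26 (82.6 percentile). In KO eTregs it read 9.07, 9.92 and 9.54, and in control eTregs 9.16, 9.09, 9.12 and 9.10. KO eTreg 1 thus lay below all control eTregs while KO eTreg 2 and 3 lay above them. The difference was 0.39 (95% interval 0.021 to 0.77, unadjusted P = 0.0399, adjusted P = 0.584). Without KO eTreg 1 it was 0.62 (adjusted P = 0.0725), and without KO eTreg 2 it was 0.19. Without KO eTreg 2 and 3 together it was -0.047, and these are the 2 arrays in which the macrophage markers were high. The part of those markers in the Pik3r4 signal was not tested. In cTregs Pik3r4 read 8.91, 9.54 and 9.35 in KO arrays and 9.19, 9.06, 9.42 and 9.36 in controls, a difference of 0.0094. The genotype effect in eTregs exceeded that in cTregs by 0.39, which did not pass the test of that difference (unadjusted P = 0.142, adjusted P = 0.850).

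Uvrag, the complex II subunit, had group means of 11.41 ± 0.054 (SD, n = 4) in control cTregs, 11.39 ± 0.19 (SD, n = 3) in KO cTregs, 11.35 ± 0.20 (SD, n = 4) in control eTregs and, in KO eTregs, 11.47 ± 0.11 (SD, n = 3), all within 0.12 of one another. Its genotype difference was 0.12 in eTregs (95% interval -0.14 to 0.38) and -0.016 in cTregs (95% interval -0.28 to 0.25). All 4 groups overlapped.

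Nrbf2, the partner of the Atg14 complex, had its lowest arrays in KO eTregs, at 9.29, 9.49 and 9.40. Control eTregs read 9.51, 9.57, 9.97 and 9.53, KO cTregs 9.58, 9.70 and 9.82, and control cTregs 10.03, 9.59, 9.65 and 9.73. KO eTregs therefore overlapped with neither control eTregs nor KO cTregs, though here and below the share of all transcript clusters without overlap was not counted. They were 0.25 below control eTregs (95% interval -0.54 to 0.034, adjusted P = 0.692) and 0.31 below KO cTregs (95% interval -0.61 to -0.00096, unadjusted P = 0.0494, adjusted P = 0.361). The gap between the highest KO eTreg array (9.49) and the lowest control eTreg array (9.51) was small, and without control eTreg 3 the difference was -0.14. Averaged over both genotypes Nrbf2 was 0.21 lower in eTregs (unadjusted P = 0.0459, adjusted P = 0.275), where 6.75% of all transcript clusters were called. In order, the means were 9.75 ± 0.20 (SD, n = 4) in control cTregs, 9.70 ± 0.12 (SD, n = 3) in KO cTregs, 9.64 ± 0.22 (SD, n = 4) in control eTregs and, in KO eTregs, 9.39 ± 0.10 (SD, n = 3).

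**Figure D2:**
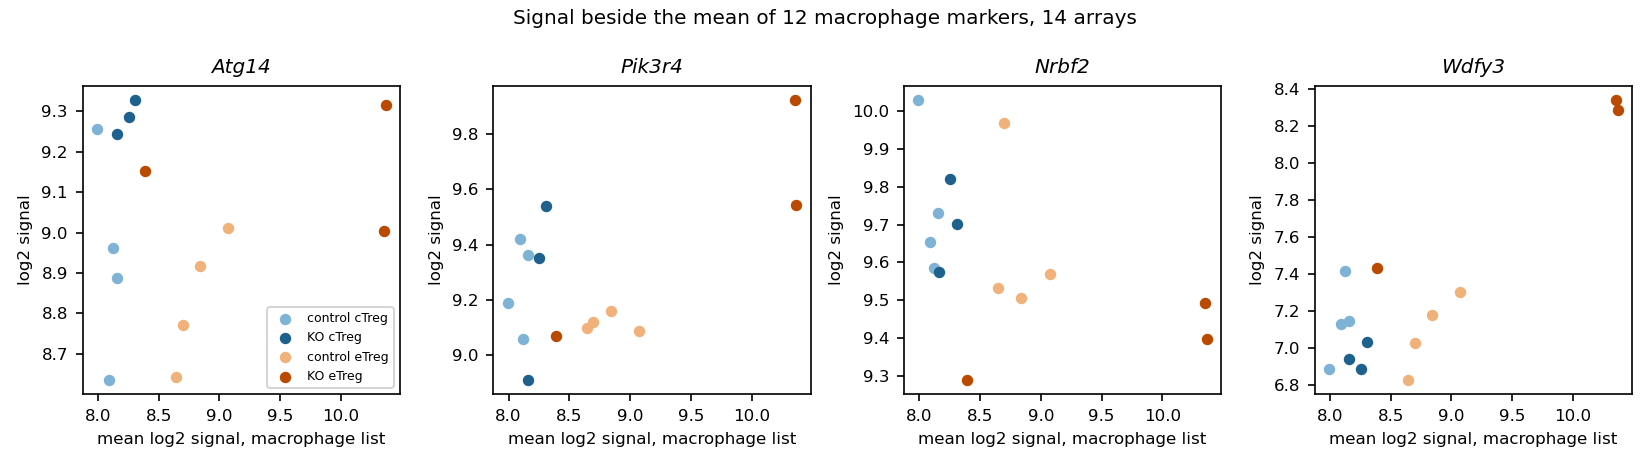
Log2 signal of Atg14, Pik3r4, Nrbf2 and Wdfy3 (vertical axes, each with its own range) against the mean log2 signal of 12 macrophage markers (horizontal axis), 1 point per array. KO eTreg 2 and 3 stand at 10.35 and 10.37 on the horizontal axis. They hold the highest Pik3r4 signals of the eTreg arrays and the highest Wdfy3 signals of all, whereas their Atg14 signals, 9.004 and 9.32, lie on either side of KO eTreg 1 (9.15).

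Set against the whole array, none (0) of the 6 subunits passed an adjusted P of 0.05 in any comparison. In eTregs the genotype comparison called 0.117% of all transcript clusters, and 2 of the 6 subunits, Atg14 and Pik3r4, had an unadjusted P below 0.05, as did 8.03% of the array. In cTregs 0.045% were called, and Atg14 was the 1 subunit with an unadjusted P below 0.05 (4.01% of the array). Between the subsets 3.58% were called in controls and 2.43% in KO arrays, and 0 and 1 of the 6 subunits, the latter Nrbf2, had an unadjusted P below 0.05 (12.8% and 13.8% of the array). The interaction, which tests whether the genotype effect differs between subsets, called 0% of the array, with 6.12% at an unadjusted P below 0.05 and 0 of the 6 subunits. The study's own threshold was also applied, for which the log2 signal must differ by at least 0.5 at an unadjusted P under 0.05. It was met by none (0) of the subunits, against 2.72% of transcript clusters in eTregs, 0.576% in cTregs, 4.72% between subsets in controls and 5.81% between subsets in KO arrays. In controls all 6 subunits were lower in eTregs, by 0.052 to 0.14, with unadjusted P values from 0.402 to 0.631, and the median difference was -0.089 against 0.0026 over the array. In KO arrays 4 of the 6 were lower, with a median of -0.092 against -0.044 over the array. Between genotypes 3 of the 6 were higher in each subset. At 3 or 4 arrays a group, the intervals of the uncalled differences do not show that the levels were equal.

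**Figure D3:**
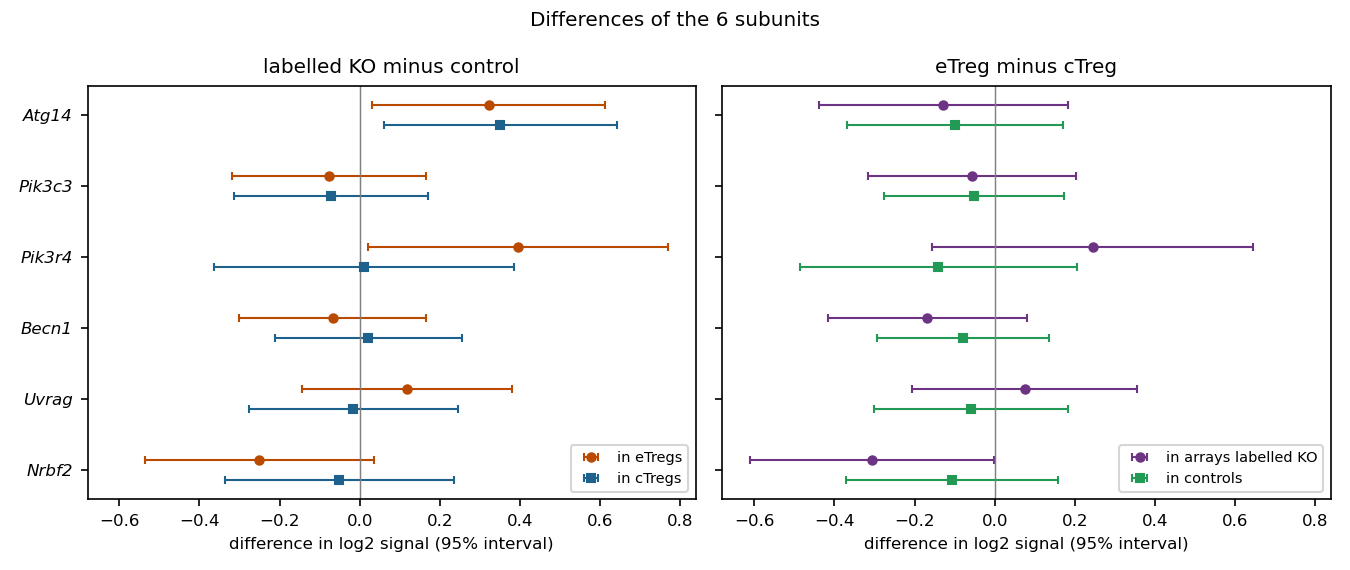
Difference in log2 signal (horizontal axis) of each subunit (vertical axis) with its 95% interval from the limma fit over 14 arrays, between genotypes on the left and between subsets on the right. Intervals that exclude 0 belong to Atg14 in both subsets and Pik3r4 in eTregs on the left, and to Nrbf2 in KO arrays on the right, and none of these differences passed adjustment.

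Whether the complex I subunit changed relative to its partners was asked within each array, where scaling between arrays cancels. The log2 ratio of Atg14 to Uvrag in eTregs was -2.28, -2.38 and -2.27 in KO arrays and -2.23, -2.61, -2.61 and -2.60 in controls. Only control eTreg 1 of the 4 control arrays lay at the level of the KO arrays. The difference was 0.20 (exact two-sided permutation p = 0.143). In cTregs the ratio was -2.11 ± 0.21 (SD, n = 3) in KO arrays and -2.47 ± 0.29 (SD, n = 4) in control arrays, which differed by 0.37 (exact two-sided permutation p = 0.114). Against the mean of the core subunits Pik3c3, Pik3r4 and Becn1, Atg14 was 0.24 higher in KO eTregs (exact two-sided permutation p = 0.171) and 0.36 higher in KO cTregs (exact two-sided permutation p = 0.143). The groups overlapped in each of these 4 comparisons. Between subsets (eTreg minus cTreg) the ratio to Uvrag differed by -0.040 in controls (exact two-sided permutation p = 0.800) and by -0.20 in KO arrays (exact two-sided permutation p = 0.300, with 0.100 the smallest possible). The ratio to the core differed by -0.0088 in controls (exact two-sided permutation p = 1.0) and by -0.13 in KO arrays (exact two-sided permutation p = 0.600). These ratios compare groups and say nothing of the relative amounts of the transcripts, since different probes bind with different strength.

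Whether the partners move with Atg14 was examined over the 14 arrays after each group's mean had been removed. Pearson's r with Atg14 was 0.051 for Pik3c3 (exact permutation p = 0.818), -0.23 for Pik3r4 (exact permutation p = 0.426) and 0.092 for Becn1 (exact permutation p = 0.716). It was 0.20 for Uvrag (exact permutation p = 0.457) and 0.26 for Nrbf2 (exact permutation p = 0.470). Spearman's rho was 0.064, -0.29, 0.10, 0.15 and 0.081 in that order of genes, with exact permutation p values of 0.833, 0.332, 0.724, 0.631 and 0.808. After Benjamini-Hochberg adjustment over the 5 relations all values were 0.783 or above. Without the 2 arrays farthest from the median of Atg14, control cTreg 1 and 3, r was 0.047, -0.13, 0.074, 0.42 and -0.21, so that the positive r of Nrbf2 rested on those arrays. Over all transcript clusters the 5th and 95th percentiles of r with Atg14 were -0.45 and 0.46, and each of the 5 partners lay within them. Among the other pairs of subunits, given as a description, the widest values were -0.51 for Becn1 with Uvrag and 0.47 for Pik3c3 with Uvrag.

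**Figure D4:**
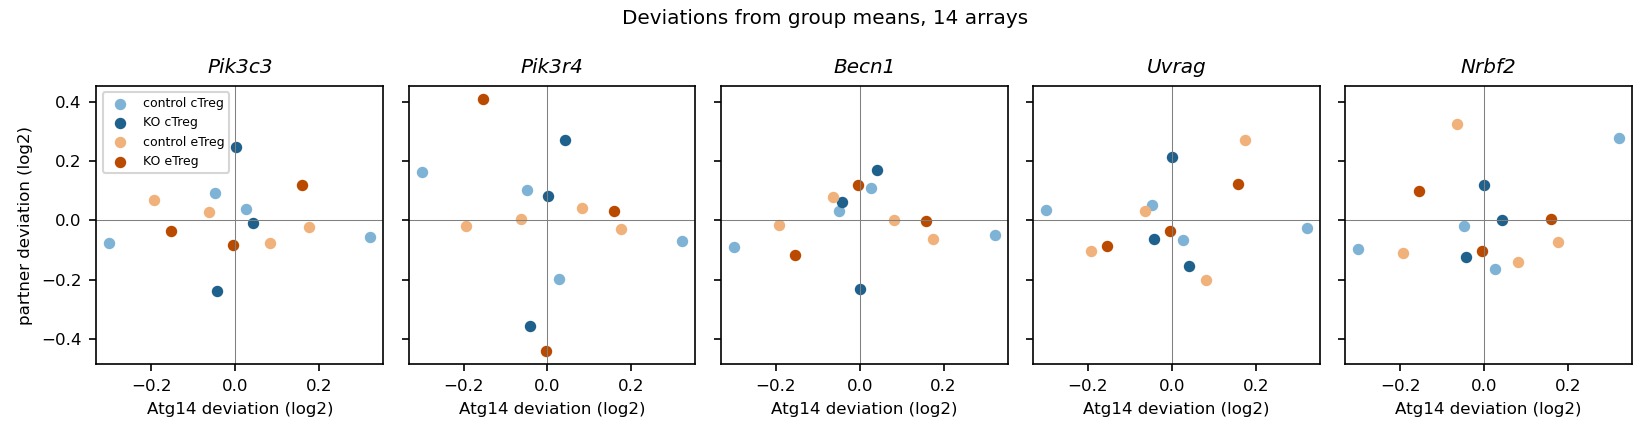
Deviation of each partner's log2 signal from its group mean (vertical axis) against that of Atg14 (horizontal axis) over 14 arrays, coloured by group. No panel shows points along a line, and Pearson's r runs from -0.23 (Pik3r4) to 0.26 (Nrbf2).

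Over the 14 arrays, with group means left in, the transcript clusters whose signals were most like that of Atg14 were Pih1d1 (r = 0.86), Tyr (r = 0.79) and Snap23 (r = 0.79). The closest to each other subunit was Tfrc for Pik3c3 (r = 0.84), Mycbp for Pik3r4 (r = 0.90), Olfr742 for Becn1 (r = 0.83), Bre for Uvrag (r = 0.80) and Nars2 for Nrbf2 (r = 0.88). All pairs share the same 14 arrays, and each is the best of 22203 candidates. No subunit was the closest match of another.

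Of the other genes of the pathway, 48 were listed in 6 groups and 46 were measured. Between genotypes none (0) of the 46 was called in either subset, where 0.117% and 0.045% of the array were, and the median difference was 0.085 in eTregs and -0.052 in cTregs, against -0.022 and 0.016 over the array. Among 13 PI3P effectors, 4 had an unadjusted P below 0.05 in eTregs, where 8.03% of the array did, and none (0) in cTregs, where 4.01% did. Among 8 PI3P phosphatases, the myotubularins that remove the signal, 1 did in each subset. None (0) of the 10 Vps34 regulators, 5 ULK kinase complex genes, 4 autophagosome SNARE genes and 6 Rab and tether genes did so in either subset. Between subsets 2 of the 46 genes (4.35%) were called in controls and 3 (6.52%) in KO arrays, against the 3.58% and 2.43% of the array given above, and counts this small set the list apart in neither.

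Eea1, a FYVE protein that tethers early endosomes by binding PI3P, had the widest difference between the subsets of the 46 pathway genes measured. Its log2 signal was 11.43 to 11.76 in control eTregs and 9.34 to 9.89 in control cTregs, and it rose by 1.94, or 3.83-fold (adjusted P = 3.95e-06). In KO arrays it read 10.56, 11.12 and 11.36 in eTregs and 9.42 to 9.65 in cTregs, and it rose by 1.49 (adjusted P = 0.00036). The subsets overlapped in neither genotype. All 3 KO eTreg arrays lay below the 4 control eTreg arrays, a difference of -0.60 (unadjusted P = 0.00307, adjusted P = 0.264) that was -0.37 without KO eTreg 1 and -1.05 without KO eTreg 2 and 3, when KO eTreg 1 stood alone. In cTregs KO and control arrays differed by -0.15, and the interaction was -0.45 (adjusted P = 0.844). In each genotype 11 of the 12 macrophage markers were also higher in eTregs than in cTregs, and their part in the subset differences of Eea1, Bcl2 and Nrbf2 was not tested.

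Wdfy3, a large FYVE protein known as Alfy that takes part in the autophagy of protein aggregates, was at 7.43, 8.34 and 8.29 in KO eTregs and at 6.83 to 7.30 in control eTregs. The groups did not overlap, and the difference was 0.94, or 1.91-fold (adjusted P = 0.0815). In cTregs KO and control arrays read 6.89 to 7.04 and 6.89 to 7.42. In KO arrays Wdfy3 rose by 1.07 from cTregs to eTregs (adjusted P = 0.0095), and the interaction was 1.13 (unadjusted P = 0.000713, adjusted P = 0.545). The highest values were in KO eTreg 2 and 3, the arrays with high macrophage markers. Without both, KO eTreg 1 alone gave a genotype difference of 0.35 in eTregs and a subset difference of 0.48 in KO arrays. The subset difference was 0.91 (adjusted P = 0.0587) without KO eTreg 2 and 0.93 (adjusted P = 0.0638) without KO eTreg 3, so that each array decided the call. Without KO eTreg 1 instead, the genotype difference was 1.23 (adjusted P = 0.000121) and the interaction 1.42 (adjusted P = 0.00135), both then called. The part of the macrophage markers in the Wdfy3 signal was not tested.

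Bcl2, which binds Beclin 1 and keeps it from the kinase, was 12.79 to 12.85 in control cTregs and 12.19 to 12.40 in control eTregs. It fell by 0.54 in controls (adjusted P = 0.0249) and by 0.60 in KO arrays (adjusted P = 0.0437). KO eTregs read 12.65, 12.22 and 11.89, so that KO eTreg 1 lay closest to the cTregs, and with KO eTreg 1 as the only KO eTreg array the subset difference was -0.20. Between genotypes Bcl2 differed by -0.035 in eTregs. The call in controls was lost when any single control array except control eTreg 3 was left out, with adjusted P up to 0.0798. The call in KO arrays was lost when any single array except control eTreg 1 or KO eTreg 1 was left out, with adjusted P up to 0.215. Over all fits with 1 array left out, the difference ranged from -0.57 to -0.51 in controls. In KO arrays it ranged from -0.79 to -0.42 and was smallest without KO eTreg 3. The calls were kept at the widest differences, without control eTreg 3 in controls and without KO eTreg 1 in KO arrays.

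The remaining genes named by rank did not pass adjustment. In eTregs Mtmr7, a myotubularin, read 9.07 to 9.32 in KO arrays and 9.43 to 9.84 in controls, a difference of -0.47 (adjusted P = 0.271) without overlap. Plekhm1, a Rab7-binding adaptor at the lysosome, read 10.69 to 11.02 in KO eTregs and 10.48 to 10.60 in controls, a difference of 0.32 (adjusted P = 0.490) without overlap. In cTregs Mtmr4, an endosomal myotubularin, was 0.33 lower in KO arrays (unadjusted P = 0.0264, adjusted P = 0.9999), and Usp13, a deubiquitinase of Beclin 1, was 0.25 lower (unadjusted P = 0.0608). Mtmr1 differed by -0.20 and Rbsn by 0.25, both with overlap. Mtmr4 was 0.29 higher in KO eTregs, and its interaction was 0.62 (unadjusted P = 0.00543, adjusted P = 0.736). The interaction of Mtmr7 was -0.42 (unadjusted P = 0.0475, adjusted P = 0.813).

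**Figure D5:**
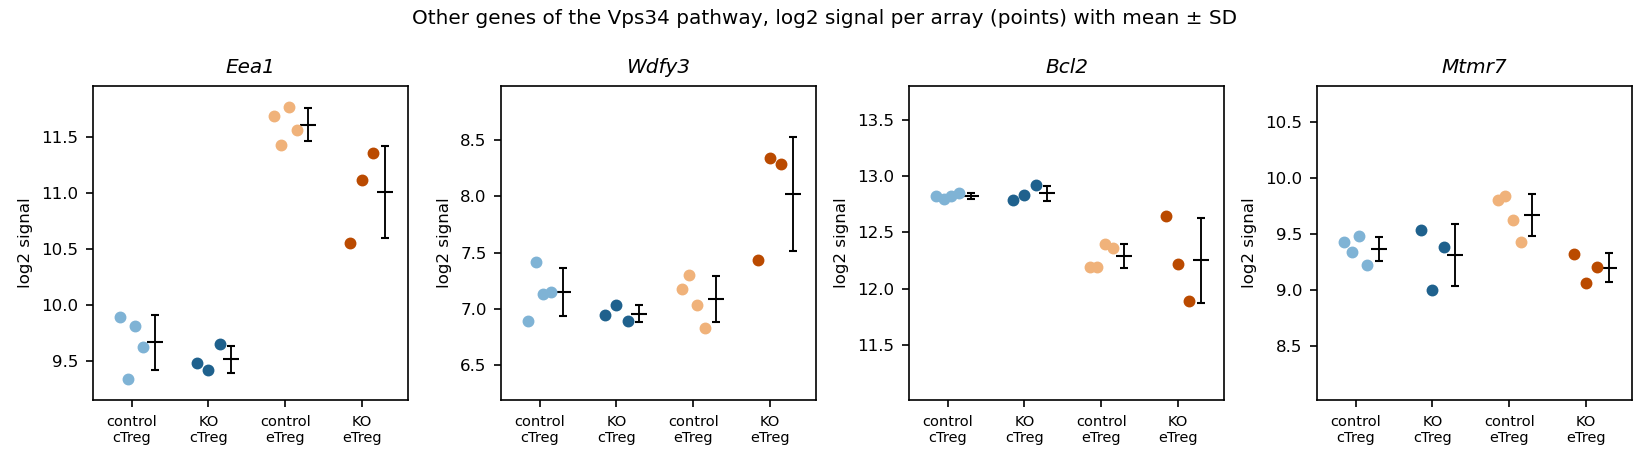
Log2 signal of Eea1, Wdfy3, Bcl2 and Mtmr7 (vertical axis, each panel spanning the same range around its own centre) in the 4 groups (horizontal axis). Points are arrays, and the bar beside them is the mean with its SD over 3 or 4 arrays. Eea1 separates eTregs from cTregs in both genotypes, Bcl2 is lower in eTregs, and Wdfy3 is high in 2 of the 3 KO eTreg arrays.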

How the data were processed

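The authors extracted RNA from sorted cells, hybridised it to Clariom S mouse arrays and summarised the probes with Affymetrix Expression Console 1.1 (RMA, which corrects the background, quantile normalises and combines probes by median polish). The deposited values are log2 signals. The scans were not used here, so background correction and probe summary could not be varied. Of 28846 entries, 6640 control entries and 3 with a blank symbol were left out, and 22203 transcript clusters were tested. Symbols are those of the file, which names no genome build.

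One linear model with 4 group means was fitted to all 14 arrays with limma 3.58.1 in R 4.3.3 (lmFit, eBayes, 10 residual and 5.65 prior degrees of freedom). Tests were two-sided, and the Benjamini-Hochberg method over the 22203 transcript clusters gave the adjusted P. A call is an adjusted P below 0.05, without a threshold on size. The model was also run on simulated data with independent arrays and planted differences wider than any seen in the members. That run does not test differences as small as theirs. Atg14, its ratios and its correlations (20736 permutations within groups) were tested by exact permutation with numpy 2.4.6. The number of arrays limits the precision.

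The members, lists and tests were chosen with earlier results of these data known. Besides the 6 members, Foxp3, Cd44, Ptprc, another gene of the sort that is not reported here and the 6 largest of the markers that differed by 1 or more between genotypes with an unadjusted P below 0.05, the pathway genes named in each comparison are up to 6 that were called or, with none, the 4 of smallest P. Alternatives were other samples in the fit, scaling, a signal filter, array weights, eBayes settings, blocks and arrays left out.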

Additional observations from a re-analysis of the deposited data

Results flagged for a closer look

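Nrbf2 in control eTreg 3 was far from the other arrays of its group, at a log2 signal of 9.97 against 9.51, 9.57 and 9.53. The gap to the nearest array was 0.86 of the range of the group, above the 95% critical value of Dixon's test for 4 arrays. Of 30 groups of 4 arrays examined (15 genes), this was the only 1 past that value, and chance passes about 5% of groups. Without this array Nrbf2 differed by -0.14 between KO and control eTregs, against -0.25 with it.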

How the results depend on the processing

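No member was called in any of the 158 alternative fits over the 7 comparisons, and the lowest adjusted P of a member was 0.0673, for Atg14 averaged over both subsets with array weights. The Atg14 difference stayed positive, at 0.24 to 0.40 in eTregs and 0.25 to 0.46 in cTregs with 1 array left out. Without KO eTreg 1, 1 member, Pik3r4, met the study's threshold in eTregs (0.62) and in the interaction (0.61). Same-numbered arrays of both subsets correlated at 0.044 to 0.30 in their deviations, and arrays of different numbers in a genotype at -0.31 to 0.12. The numbers were not taken as pairs, since the labels do not state them and not every same-numbered pair was above 0.1. All same-numbered values were positive, however, so these values do not exclude that both subsets share mice. The fit with a random block estimated a correlation of 0.238 within a number. The main tests and the exact tests between subsets leave this correlation out. With the number as a replicate block the array's calls between genotypes in cTregs went from 10 to 6, with genotype and number as a random replicate block those between subsets went from 795 to 1197 in controls and from 540 to 1046 in KO arrays, and no member was called. Bcl2 lost its call in KO arrays under the fixed block (adjusted P = 0.0543) and, like Wdfy3, when only the groups compared were fitted (adjusted P = 0.303 and 0.0928), with the differences unchanged at -0.60 and 1.07. Array weights called Wdfy3 between genotypes in eTregs (1.17, adjusted P = 0.00278), and its call between subsets in KO arrays was lost without KO eTreg 2 or 3. Filtering on signal removed Wdfy3, Usp13 and Mtmr1, and each gene named has 1 row, so averaging rows was not applicable.

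Over the array, leaving out KO eTreg 1 raised the calls between genotypes in eTregs from 26 to 458, between subsets in KO arrays from 540 to 1302 and in the interaction from 0 to 207, and array weights gave 479 in eTregs. The count in eTregs was 10 without control eTreg 4, 11 without control eTreg 3, 16 without control cTreg 3 or KO eTreg 3, 17 without KO eTreg 2 or with the signal filter, and 10 when only the groups compared were fitted. Between subsets in KO arrays it was lower without KO eTreg 3 (219), KO eTreg 2 (257), both (74), KO cTreg 3 (296) or KO cTreg 1 (311) and with only the groups compared (133), and array weights gave 1031. In cTregs single arrays left out gave 3 to 10 calls, and the average genotype effect went from 20 to 321 without KO eTreg 1 and to 60 without control eTreg 1.

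The following uncalled values changed sign, and the cause was not tested. In cTregs array weights turned Pik3c3 to 0.024, Becn1 to -0.019, Uvrag to 0.025 and Nrbf2 to 0.037, subtracting array medians turned Pik3r4 to -0.0095, and subtracting 75th percentiles turned Uvrag to 0.0031. Array medians turned the interaction of Atg14 to 0.0033 and of Pik3c3 to 0.027. Without KO eTreg 2 and 3, chosen after seeing the data, Pik3r4 was -0.047 and Becn1 0.051 between genotypes in eTregs, Pik3r4 was -0.20 between subsets in KO arrays, and the interactions were -0.056 for Pik3r4 and 0.029 for Becn1. With the cTreg and eTreg arrays of 1 number averaged, the correlation with Atg14 was -0.31 for Becn1 and -0.075 for Nrbf2. With 1 array left out, the genotype difference in cTregs ranged from -0.20 to 0.048 for Pik3c3, -0.13 to 0.19 for Pik3r4, -0.063 to 0.14 for Becn1, -0.12 to 0.060 for Uvrag and -0.11 to 0.042 for Nrbf2. The subset difference ranged from -0.20 to 0.0080 for Atg14 and -0.15 to 0.0072 for Uvrag in controls, and from -0.18 to 0.067 for Pik3c3 and -0.0016 to 0.18 for Uvrag in KO arrays. The interaction ranged from -0.14 to 0.071 for Atg14 and -0.12 to 0.12 for Pik3c3. Between subsets in controls the ratio of Atg14 to Uvrag ranged from -0.15 to 0.075 and that to the core from -0.11 to 0.12. The correlation with Atg14 ranged from -0.10 to 0.20 for Pik3c3, -0.091 to 0.25 for Becn1, -0.038 to 0.33 for Uvrag and -0.19 to 0.48 for Nrbf2.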
